A study of Homo sapiens with 6 samples.

Results

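The genes that write, copy and erase DNA methylation were examined in NB4 cells, a human acute promyelocytic leukemia line that carries the PML-RARA fusion, after 3 days with DMSO alone or with Tanshinone I (Tan I, a lipid-soluble diterpene of Salvia miltiorrhiza) at 10 μM. The set was chosen by gene symbol from knowledge of the pathway and holds 10 of the 18625 genes in the table: DNMT1, DNMT3A, DNMT3B, UHRF1, TET1, TET2, TET3, TDG, IDH1 and IDH2. RNA-seq was performed on 3 libraries per group, all from the same cell line, and the study asked how Tan I, which it describes as an EZH2 inhibitor, changes gene expression in these cells. The labels do not say whether the libraries of a group came from separate cultures, so p-values measure only the spread between these libraries.

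DNA methylation in mammals sits mostly on the cytosine of CpG dinucleotides. DNMT3A and DNMT3B place new methyl groups, while DNMT1, guided by UHRF1 to the hemimethylated CpGs left by replication, copies the pattern to the new strand. TET1, TET2 and TET3 oxidize the methyl group with iron and 2-oxoglutarate as cofactors, and TDG excises the most oxidized forms so that base excision repair can restore cytosine. IDH1 in the cytosol and IDH2 in mitochondria make the 2-oxoglutarate that TET enzymes need. DNMT3A, TET2, IDH1 and IDH2 are among the genes recurrently mutated in acute myeloid leukemia, and only RNA levels were measured here.

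All 10 genes were measured well above the low-count range, with from 230 reads for TET1 to 29065 reads for DNMT1 in a single library, and all 10 passed the filter of a mean of at least 10 normalized counts. A normalized count is a read count divided by one size factor for its library. None of the 10 genes passed the test of Tan I against DMSO: limma called 0 of 10, a call being p up to 0.05 before adjustment with log2 fold change (log2FC) beyond 0.25 either way, while 2.42% of the 16887 genes tested were called (1.32% higher and 1.1% lower in Tan I). Of those calls 54.7% were higher in Tan I, and 42.9% were when the libraries were set to equal totals. With adjustment over all genes tested, limma called 0 of 10 and 0% of all genes. On the recovered reads edgeR (2.42% of all genes called before and 0% after adjustment) and DESeq2 (2.49% and 0.0947%) also called 0 of 10. The log2 fold changes of the set ran from -0.26 for TET1 to 0.17 for IDH1, with a median of -0.07, beside a median of -0.00 over all genes tested. Of the log2 fold changes of the set, 6 were negative (the DNMT and TET genes) and 4 were positive (UHRF1, TDG, IDH1 and IDH2). UHRF1 and IDH2 turned negative with equal totals, and IDH2 also with quantile normalization. With equal totals the median over all genes tested moved to -0.061, below both UHRF1 (-0.034) and IDH2 (-0.0035). In bulk RNA, a lower level in every cell and a smaller share of cells with the RNA cannot be told apart.

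For DNMT1, DNMT3B, UHRF1, TET1, TET2, TET3 and IDH2 the difference between treatments was smaller than the pooled within-group SD on the log2 scale. For DNMT3A (log2FC -0.22, SD 0.14), IDH1 (0.17, SD 0.12) and TDG (0.13, SD 0.07) it was larger, without a call. The median of this SD over the set was 0.22, beside 0.23 over genes averaging 50 or more normalized counts. TET2 differed 2.31-fold between the highest and the lowest DMSO library and 2.02-fold within Tan I, while its Tan I mean was 0.852 times its DMSO mean. In all 10 genes, DMSO replicate 2 and Tan I replicate 3 held the extreme value of their group and lay on the same side, lowest in 7 genes (DNMT1, DNMT3A, DNMT3B, TET1, TET2, TET3 and TDG) and highest in 3 (UHRF1, IDH1 and IDH2).

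**Figure D1:**
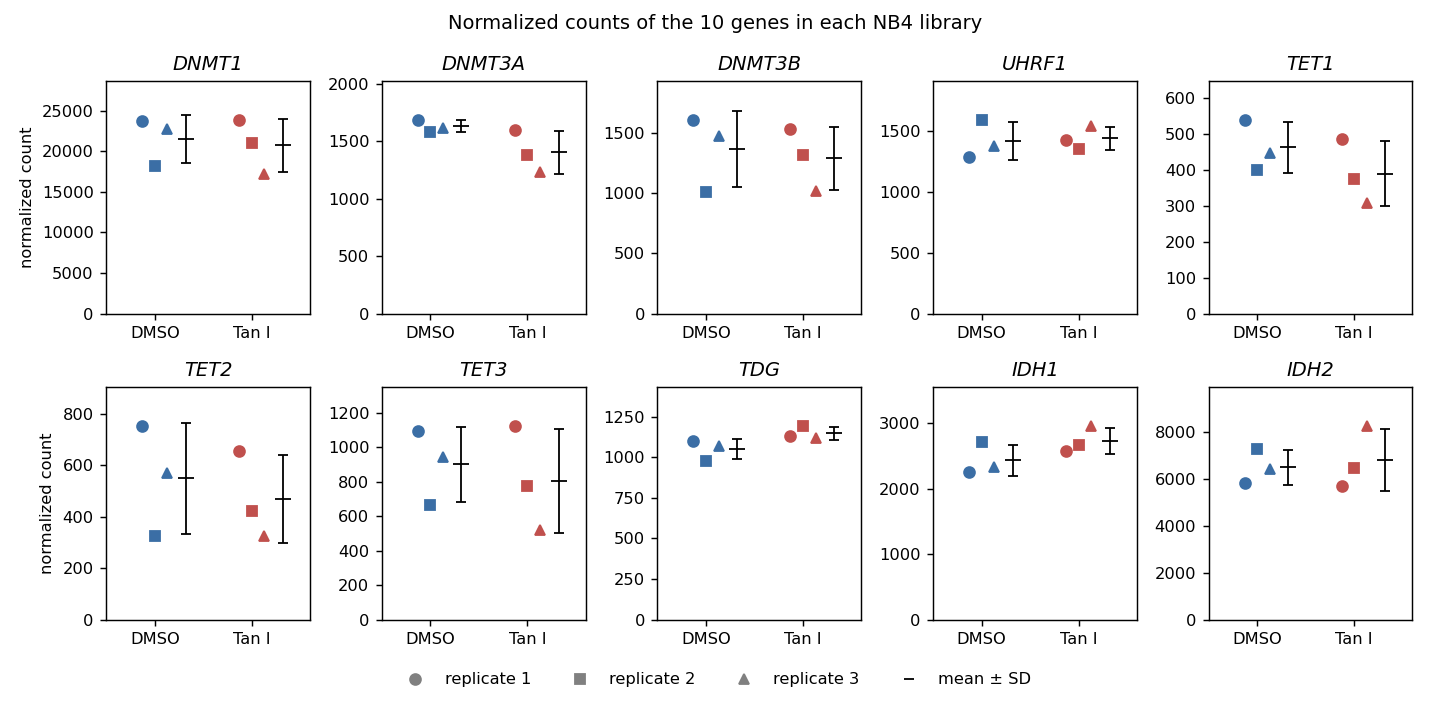
Normalized count (y axis, from 0) of each of the 10 genes in the 3 DMSO (blue) and 3 Tan I (red) libraries, with the marker shape giving the replicate and the bar the mean ± SD. The groups overlap for 9 genes, and for TDG the lowest Tan I library (1116) lies just above the highest DMSO library (1100.3).

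Promoter sequences of 4 of the genes are shown, chosen by the pattern of their RNA across the libraries. Within each group DNMT1, TET2 and TDG were lowest in DMSO replicate 2 and Tan I replicate 3, and UHRF1 was highest there. TDG was also the gene whose groups did not overlap in normalized counts. They come from RefSeq (GRCh38.p14), cover the 250 bases before the annotated start, 5′ to 3′ on the strand of the gene, and lie at chr19:10194954-10195203 (- strand) for DNMT1, chr19:4909251-4909500 (+ strand) for UHRF1, chr4:105146626-105146875 (+ strand) for TET2 and chr12:103965622-103965871 (+ strand) for TDG. Capitals mark CpG dinucleotides, the sites these enzymes act on.
DNMT1: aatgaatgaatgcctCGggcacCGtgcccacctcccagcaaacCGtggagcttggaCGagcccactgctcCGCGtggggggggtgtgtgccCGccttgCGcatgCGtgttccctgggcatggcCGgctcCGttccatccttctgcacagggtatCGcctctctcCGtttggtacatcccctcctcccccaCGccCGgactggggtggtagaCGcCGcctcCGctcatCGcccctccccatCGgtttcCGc
UHRF1: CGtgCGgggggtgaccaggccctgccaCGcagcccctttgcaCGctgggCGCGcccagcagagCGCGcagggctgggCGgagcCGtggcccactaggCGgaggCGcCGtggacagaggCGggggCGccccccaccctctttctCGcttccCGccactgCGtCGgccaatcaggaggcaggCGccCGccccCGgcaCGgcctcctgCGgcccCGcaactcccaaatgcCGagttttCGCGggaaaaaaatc
TET2: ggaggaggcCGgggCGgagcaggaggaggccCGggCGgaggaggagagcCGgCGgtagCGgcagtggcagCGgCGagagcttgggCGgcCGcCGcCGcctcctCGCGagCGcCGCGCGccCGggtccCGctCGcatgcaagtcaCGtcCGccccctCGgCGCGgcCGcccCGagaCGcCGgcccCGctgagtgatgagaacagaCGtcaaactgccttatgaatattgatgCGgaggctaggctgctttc
TDG: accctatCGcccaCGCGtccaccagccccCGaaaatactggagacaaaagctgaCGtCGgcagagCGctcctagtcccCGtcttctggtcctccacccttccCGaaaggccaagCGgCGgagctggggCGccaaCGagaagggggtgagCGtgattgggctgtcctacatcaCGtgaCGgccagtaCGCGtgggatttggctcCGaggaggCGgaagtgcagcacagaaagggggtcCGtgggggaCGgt

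An entry whose start equals that of the canonical GENCODE transcript was found for 8 of the 10 genes, all but DNMT3B and IDH2. The nearest entries of DNMT3B and IDH2 lay 17467 and 1847 bases from that start and held 3 and 4 CpGs. The 35116 RefSeq promoters of the same length used for comparison were not limited to canonical starts. In 7 of the 8 matched windows the CpG count exceeded the median of 11 over these promoters. It was 37 in TET3, 34 in TET2, 33 in DNMT3A, 28 in UHRF1, 22 in TDG, 21 in DNMT1 and 17 in IDH1, and 9 in TET1. TET2 and UHRF1, which varied in opposite directions between libraries, both had CpG-dense windows. Searched on both strands, the letters TTTCCCGC, a form of the E2F site of S phase genes, stood once in the UHRF1 window (as the complement, 3′ in the sequence shown) and in none of the other 7, and in 1.39% of all promoters. A related form, TTTGGCGC, was in 0 of the 8 windows and in 0.55% of all promoters. The GC box GGGCGG was found in 5 of the 8 (42.6% of all promoters) and CCAAT in 3 of the 8 (32%). These matches are letters in a window and were not tested as binding sites.

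DNMT1, the maintenance methyltransferase, had the highest normalized counts of the set. The gene (ENSG00000130816, chromosome 19 from 10133342 to 10231286, - strand of GRCh38, 41 exons in the canonical transcript) was measured at 23692, 18198 and 22711 normalized counts in DMSO replicates 1, 2 and 3 and 23859, 20996 and 17238 in Tan I replicates 1, 2 and 3. The highest and the lowest library were both Tan I libraries, and the groups overlapped. Mean DMSO and Tan I values were 21533 ± 2930 and 20698 ± 3321 (SD, n = 3 each), and limma gave log2FC -0.06 ± 0.18 (SE, adjusted p = 0.999). The 95% confidence interval of the fold ran from 0.72 to 1.28, in a fit that takes the libraries as independent.

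UHRF1, which recruits DNMT1 to replicated DNA, lies on the same chromosome (ENSG00000276043, 4903080 to 4962154, + strand, 17 exons). Its normalized counts were 1287, 1591 and 1374 in DMSO and 1424, 1352 and 1540.3 in Tan I. DMSO replicate 2 was the highest library of all, and the Tan I values lay inside the DMSO range. Limma estimated log2FC at 0.03 ± 0.12 (SE, adjusted p = 0.999), and the 95% interval of the fold ran from 0.83 to 1.25. DNMT1 and UHRF1 act together in replicating cells, yet across the 6 libraries their log2 values ran in opposite directions (Pearson r = -0.83, n = 6 libraries that share one dominant axis of variation, a description only). The log2 ratio of UHRF1 to DNMT1 averaged -3.92 ± 0.36 for DMSO against -3.83 ± 0.31 for Tan I (SD, n = 3 each; exact two-sided permutation test, p = 0.6, where 3 libraries against 3 allow no p below 0.1).

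Of the de novo enzymes, DNMT3A (ENSG00000119772, chromosome 2 from 25227855 to 25342590, - strand, 23 exons) came closest to a difference. It had 1687, 1583 and 1617 normalized counts in DMSO, a tight group, and 1602, 1376 and 1232 in Tan I. Only Tan I replicate 1 reached into the DMSO range. The means were 1629 ± 52.7 and 1404 ± 186 (SD, n = 3 each; exact permutation p = 0.2). Limma estimated log2FC at -0.22 ± 0.13 (SE) and the interval of the fold at 0.70 to 1.05 (unadjusted p = 0.122, adjusted p = 0.999). The call turned on 1 library: without Tan I replicate 1 the log2 fold change of DNMT3A was -0.32 (limma, unadjusted p = 0.032, adjusted p = 0.53), a setting in which 8.86% of all genes tested were called without adjustment.

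DNMT3B (ENSG00000088305, chromosome 20 from 32762385 to 32809359, + strand, 23 exons) had 1607, 1007 and 1469.8 normalized counts in DMSO and 1534, 1313 and 1016 in Tan I. The lowest library of each group, DMSO replicate 2 and Tan I replicate 3, stood at nearly the same level, and limma estimated log2FC at -0.07 ± 0.22 (SE, adjusted p = 0.999). DNMT3B followed DNMT1 across the libraries (r = 0.99, n = 6), more closely than DNMT3A did (r = 0.71), a description only. The log2 ratio of DNMT3A to DNMT3B was 0.29 ± 0.32 in DMSO, with values of 0.07, 0.65 (replicate 2) and 0.14, against 0.14 ± 0.12 for Tan I (SD, n = 3 each; exact two-sided permutation test, p = 0.5).

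TET2 and TET3 were the most variable genes of the set. TET2 (ENSG00000168769, chromosome 4 from 105145875 to 105279816, + strand, 11 exons), the TET gene most often mutated in myeloid malignancy, had 752, 326 and 569 normalized counts in DMSO and 656, 423 and 324 in Tan I. Within each group the highest library was at least 2.02 times the lowest, and the order of the libraries mixed the treatments. Limma estimated log2FC at -0.21 ± 0.36 (SE, adjusted p = 0.999), and the interval of the fold, 0.48 to 1.54, is the widest of the 10 genes. A pooled within-group SD of 0.57 on the log2 scale placed TET2 above 94.1% of 12621 genes whose mean was 50 or more.

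TET3 (ENSG00000187605, chromosome 2 from 73984910 to 74108176, + strand, 12 exons) had 1096, 665 and 943 normalized counts in DMSO and 1124, 774 and 523 in Tan I. Its within-group SD of 0.47 exceeded that of 89.96% of the same genes, and its log2FC by limma was -0.20 ± 0.30 (SE, adjusted p = 0.999). TET1 (ENSG00000138336, chromosome 10 from 68560337 to 68694487, + strand, 12 exons) had 539, 399.7 and 448 normalized counts in DMSO and 486, 374 and 307 in Tan I. Here the 2 lowest libraries were Tan I replicates 3 and 2, but Tan I replicate 1 stood above DMSO replicates 2 and 3. TET1 gave the most negative log2 fold change of the set by limma, -0.26 ± 0.20 (SE, unadjusted p = 0.234, adjusted p = 0.999).

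TDG, the glycosylase that removes oxidized methylcytosine (ENSG00000139372, chromosome 12 from 103965822 to 103988874, + strand, 10 exons), varied least between libraries. It had 1100.3, 979.6 and 1066 normalized counts in DMSO and 1132, 1192 and 1116 in Tan I. In normalized counts every Tan I library exceeded every DMSO library. On that scale groups did not overlap in 1 of the 10 genes, beside 7.89% of all genes tested (3.92% with Tan I above). The separation depended on the size factors. As a share of library reads, TDG in Tan I replicate 3 (837 of 21502760) lay below DMSO replicate 1 (1180 of 25356503). With equal totals its log2FC by limma was 0.07 (unadjusted p = 0.623). The means of the normalized counts were 1049 ± 62.2 and 1147 ± 40.0 (SD, n = 3 each), and 4.94% of those 12621 genes had a lower within-group SD. The difference was small: the fold was 1.09 with a 95% interval from 0.92 to 1.30 and log2FC by limma was 0.13 ± 0.11 (SE, unadjusted p = 0.264, adjusted p = 0.999; two-sided exact permutation p = 0.1, which is the floor for 3 against 3).

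In the deposited normalized counts both dehydrogenases had a higher mean in Tan I, with groups that overlapped. IDH1 (ENSG00000138413, chromosome 2 from 208236229 to 208266074, - strand, 10 exons) had 2258, 2708 and 2329 normalized counts in DMSO and 2573, 2671 and 2959 in Tan I. DMSO replicate 2 exceeded 2 of the 3 Tan I libraries, and the other DMSO libraries lay below all of Tan I. Limma estimated log2FC at 0.17 ± 0.12 (SE, unadjusted p = 0.199, adjusted p = 0.999). IDH2 (ENSG00000182054, chromosome 15 from 90083045 to 90102477, - strand, 11 exons) had 5806, 7291 and 6412 normalized counts in DMSO and 5709, 6471 and 8256 in Tan I. Tan I libraries held both the lowest and the highest IDH2 value, and limma estimated log2FC at 0.06 ± 0.17 (SE, adjusted p = 0.999).

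**Figure D2:**
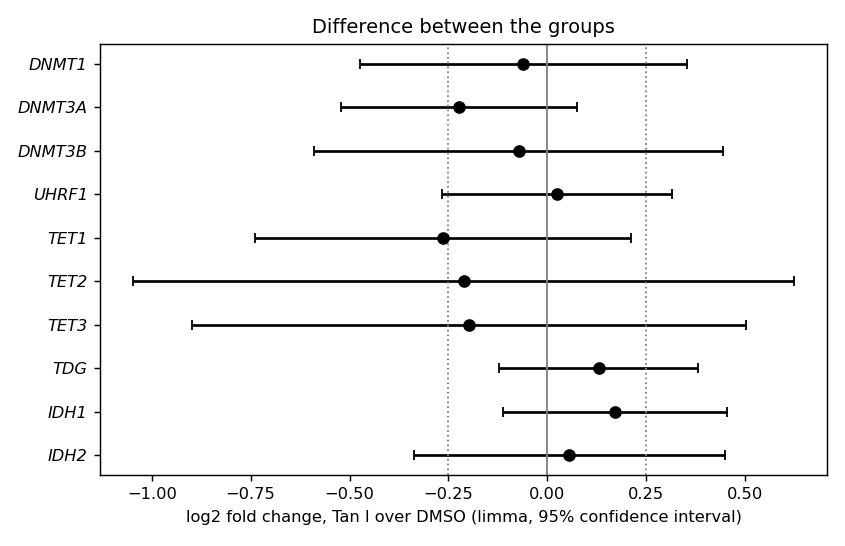
Change in Tan I relative to DMSO on the log2 scale, estimated by limma (points), with its 95% confidence interval (bars) for each of the 10 genes; the solid line marks 0 and the dotted lines the call threshold of 0.25 in either direction. Every interval crosses 0, and the widest belongs to TET2, with a standard error of 0.36.

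For most of the set the spread between libraries ran along the main axis of variation of the whole data set. The first principal component of the 16887 genes held 70.8% of the variance, with DMSO replicate 1, Tan I replicate 1 and DMSO replicate 3 at one end (scores -48.0, -46.8 and -26.7), Tan I replicate 2 in between (8.65) and DMSO replicate 2 and Tan I replicate 3 at the other end (41.1 and 71.6). The log2 values of TET3, DNMT1, DNMT3B, TET2 and TET1 ran down this axis, with Pearson r of -0.996, -0.99, -0.97, -0.97 and -0.93 over the 6 libraries. IDH2 ran up it (r = 0.97), and IDH1 and UHRF1 did so more loosely (0.86 and 0.78). DNMT3A had r = -0.79, and TDG, at -0.22, followed the axis least. As the component is computed from the same libraries, these correlations describe the spread and carry no test. An absolute r above 0.9 was found in 6 of the 10 genes, in 34.9% of all genes tested and in 40.3% of those averaging 50 or more normalized counts. The joint extreme position of DMSO replicate 2 and Tan I replicate 3 was seen in all 10 genes. It was found in 67.1% of all genes tested and in 72.4% of those averaging 50 or more, so it is common in these libraries.

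**Figure D3:**
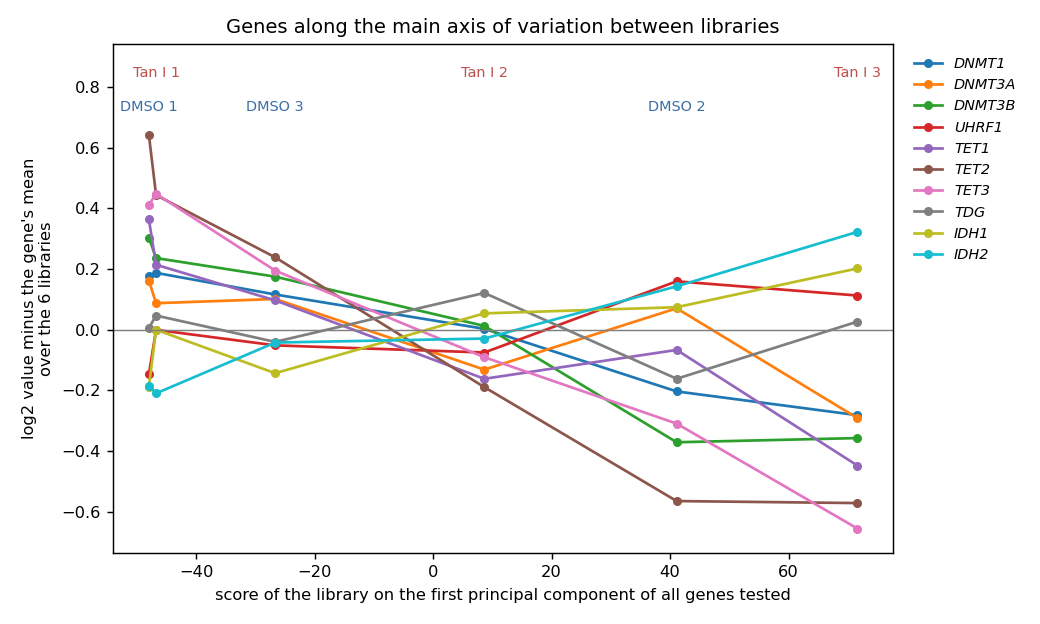
Log2 value of each gene minus its mean over the 6 libraries (y axis) against the score of the library on the first principal component (x axis), with 1 line per gene and the library named above its points. TET2 and TET3 drop furthest from left to right, IDH2 and IDH1 climb, and TDG stays within a narrow band; DMSO and Tan I libraries alternate along the axis.

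No batch is given in the labels for these libraries. The recovered reads ranged from 21502760 to 31679138 per library, with Tan I replicate 3 the shallowest and DMSO replicate 3 the deepest. The correlation across 16825 genes between a library's deviation and transcript length lay between -0.11 and 0.07. With GC content it nearly followed the order of the libraries on the axis above. It was -0.11 in DMSO replicate 1, -0.14 in Tan I replicate 1 and 0.02 in DMSO replicate 3. Further along it was 0.05 in Tan I replicate 2, 0.06 in DMSO replicate 2 and 0.10 in Tan I replicate 3. The part of GC content in this axis was not tested. After each library was corrected for transcript length and GC content, TET2 had a log2 fold change of -0.09 and DNMT3A of -0.08. Again 0 of the 10 genes were called, beside 2.76% of all genes. Without DMSO replicate 2 and Tan I replicate 3 together, the log2 fold changes were -0.31 for TET2, -0.20 for TET1, -0.15 for DNMT3A and 0.10 for TDG, again with 0 of 10 called, beside 2.82% of all genes before and 0.0118% after adjustment. With the score on this axis as a covariate 0 of 10 were called, beside 8.86% and 1.15%, and with the replicate number as a block 0 of 10, beside 2.06% and 0%. What moved the libraries along this axis was not tested.

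By likeness of pattern (Pearson r of log2 values over 6 libraries, among 12620 other genes with a mean of at least 50), the genes closest to DNMT1 were EBLN2, DNAJC13 and SCARB1, each at r = 0.999 or above. Closest to TET2 were AL049697.1, FMR1 and ZNF280C, each also rounding to 0.999. Such values are not rare here: 1342 genes exceeded r = 0.95 with DNMT1 and 892 with TET2.

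Per kilobase of the canonical transcript, DNMT1 stood first in DMSO at 4083 ± 556 normalized counts, followed by IDH2 at 2447 ± 281 and IDH1 at 1049 ± 104 (SD, n = 3 each, on this scale throughout). UHRF1 (364 ± 40.2), TDG (329 ± 19.5) and DNMT3B (314 ± 72.5) came next and their libraries overlapped, so they are not ordered. DNMT3A had 173 ± 5.59. The TET genes were lowest, at 74.7 ± 18.1 for TET3, 57.2 ± 22.3 for TET2 and 48.1 ± 7.36 for TET1, and their libraries overlapped as well. In Tan I the mean levels per kilobase were 3924 for DNMT1, 2563 for IDH2, 1180 for IDH1, 369 for UHRF1, 360.3 for TDG, 297 for DNMT3B, 149 for DNMT3A, 66.9 for TET3, 48.8 for TET2 and 40.5 for TET1, listed as the DMSO means were. The order of the means depends on the length used. Per kilobase of all annotated exons merged, the DMSO mean of IDH2 (2333) exceeded that of DNMT1 (1400.2). On that scale the DMSO mean of TET1 (48.1) exceeded that of TET2 (33.3), with single libraries not compared. Under either length DNMT1 exceeded every TET gene.

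**Figure D4:**
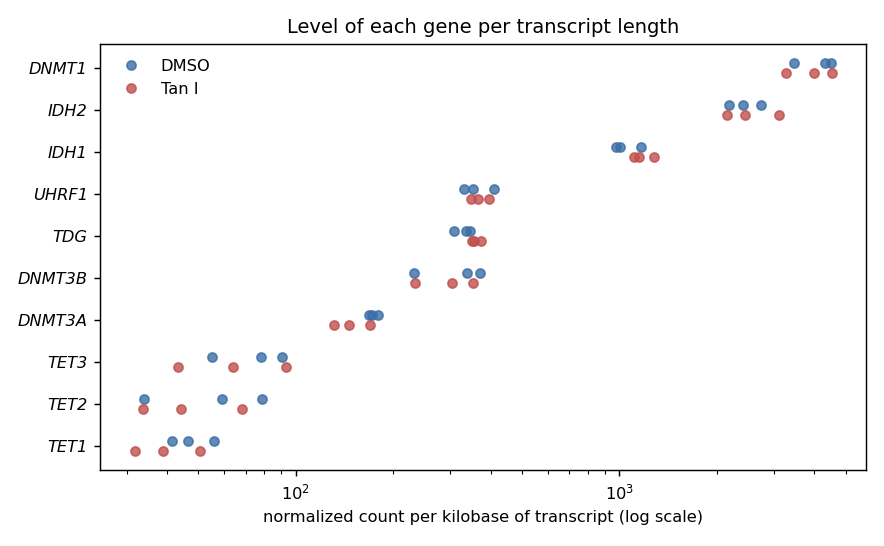
Normalized count per kilobase of canonical transcript (x axis, log scale) of each gene in the DMSO (blue) and Tan I (red) libraries, 1 point per library, ordered by the DMSO mean. DNMT1 lies between 3268 and 4524 and the TET genes between 31.9 and 93.2, with DMSO and Tan I points intermingled.

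Some annotated neighbours share exonic bases with these genes: S1PR2 with DNMT1 (83 bases, same strand), IDH1-AS1 with IDH1 (94 bases, antisense) and lncRNAs with TET3 (390 bases) and TDG (168 bases, both same strand). Reads in the stretches shared on the same strand cannot be assigned with certainty. For IDH1-AS1 this depends on how the counting treated strand, which is not given in the sources used here.

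The partners of these enzymes likewise showed no call, where 2.42% of all genes tested were called. At that share a short list can hold no call without differing from other genes. Among cofactors of the methyltransferases, 0 of the 7 genes tested were called; the log2 fold changes ran from -0.29 for NSD1, the H3K36 methyltransferase whose mark attracts DNMT3A, to 0.16 for DNMT3L, the inactive partner of the de novo enzymes, with a median of -0.04. The value of DNMT3L rests on only 23 to 50 reads per library. CDCA7, a cofactor of the remodeler HELLS, had a log2 fold change of -0.14. Among methyl-CpG readers, 0 of 8 were called, from -0.23 for ZBTB38 to 0.30 for MBD2, a methyl-CpG binding protein of the NuRD complex (median of the list -0.05). ZBTB38 had only 26 to 68 reads per library. Partners of demethylation and base excision repair gave 0 of 12 calls, from -0.15 for OGT, a TET-binding glycosyltransferase, to 0.25 for GADD45B, with a median of -0.08.

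Genes that supply cofactors were read next, beside the same share of 2.42% called over all genes tested. In the S-adenosylmethionine cycle, which provides the methyl donor, 0 of 6 genes were called, from -0.20 for MTR, the methionine synthase, to 0.11 for MAT2B, the regulatory subunit of methionine adenosyltransferase (median -0.02). In the metabolism of 2-oxoglutarate, succinate and fumarate, 0 of 13 were called and 11 of 13 log2 fold changes were positive, beside 8393 of the 16887 genes tested, with a median of 0.09, from -0.18 for D2HGDH to 0.27 for GOT1, a cytosolic aminotransferase. The median correlation of these 13 genes with the first principal component was 0.83 over the 6 libraries, and its part in the direction of the list was not tested. D2HGDH oxidizes the D form of 2-hydroxyglutarate, an inhibitor of TET enzymes. It had 1431, 1452 and 1533 normalized counts in DMSO and 1187, 1328 and 1378 in Tan I. All Tan I values were under the lowest DMSO value, an arrangement found in 3.97% of all genes tested, without a call (limma, adjusted p = 0.999).

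Because DNMT1 and UHRF1 are expressed with DNA replication, S phase genes were read beside them. Of 15 genes, 12 had a positive log2 fold change (median 0.06), beside 8393 of the 16887 genes tested. The median correlation of these 15 genes with the first principal component was 0.93 over the 6 libraries. Its part in the direction of the list was not tested. Without adjustment 1 of the 15 was called, beside 2.42% of all genes tested. It was RRM2, a subunit of ribonucleotide reductase, at 0.45 (limma, unadjusted p = 0.0353, adjusted p = 0.999). RRM2 had 3619, 4281 and 3830 normalized counts in DMSO and 4552, 4844 and 6871 in Tan I, without overlap. MCM2, a subunit of the replicative helicase, was the lowest at -0.23, not called, with 5011, 5207 and 4923 in DMSO and 4703, 4022 and 4237 in Tan I. Groups did not overlap for these 2 of the 15 genes, in opposite directions, beside 7.89% of all genes tested. Their summed normalized counts were 66341, 85074 and 68761 in DMSO and 67729, 73883 and 91303 in Tan I, again with DMSO replicate 2 and Tan I replicate 3 the highest, the libraries in which UHRF1 was high and DNMT1 low. The part of cell cycle differences in these values was not tested.

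**Figure D5:**
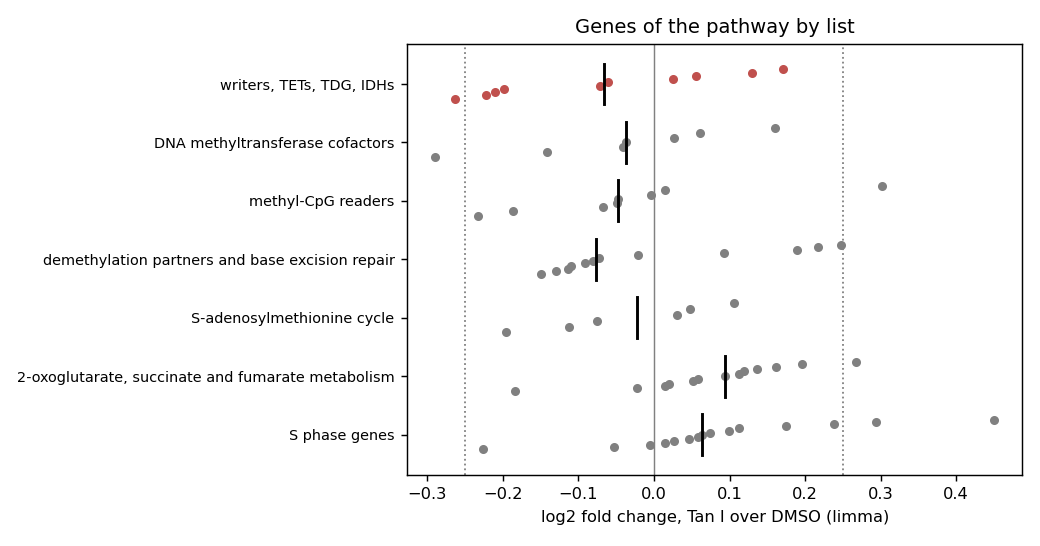
Change in Tan I relative to DMSO on the log2 scale, estimated by limma, for each gene tested of 7 lists (1 point per gene; the 10 genes described here in red), with the median of each list as a black bar and dotted lines at the call threshold of 0.25 in either direction. RRM2, at 0.45 among the S phase genes, is the only gene shown that was called.

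The label of the cells was checked against promyelocyte markers. MPO, AZU1, PRTN3, CTSG and CD33 summed to between 70959 and 76923 normalized counts in DMSO and between 41825 and 50123 in Tan I. Most of each sum was MPO, with 60389, 64107 and 63267 in DMSO and 33279, 39450 and 37076 in Tan I. Without adjustment 2 of these 5 genes were called lower, beside 1.1% of all genes tested. They were the granule proteins MPO (log2 fold change -0.78) and CTSG (-0.69, limma, adjusted p = 0.999 for both). AZU1 (-0.25), PRTN3 (-0.32) and CD33 (0.07) were not called, and their groups overlapped. ELANE was not analysed here. The 6 markers of other cell types analysed (CD3D, CD3E, EPCAM, COL1A1, PECAM1 and CD14) summed to between 722 and 985 in DMSO and between 714 and 1119 in Tan I, with none called and none at 0 reads in any library. MS4A1 and HBB were not analysed here. The part of the lower MPO and CTSG levels in the values of the methylation genes was not tested.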

How the data were processed

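RNA-seq was performed by the study on NB4 cells, 3 libraries with DMSO and 3 with Tan I. Per the labels and methods, GRCh38 alignments were made by the authors in STAR from paired-end reads, those placed at several loci were discarded, genes were counted by featureCounts, and DESeq2 was applied. Versions, annotation release and strand setting are not given in the sources used here. The authors deposited a signal table of normalized counts with Ensembl identifiers and symbols. The deposited table further holds their mean signal and their own comparison (a log2 fold change with its error, a Wald score, a p-value and an adjusted p-value), none of which was used. Dividing each library by its lowest value above 0 (1 read) gave whole numbers for 100% of genes (tolerance 0.01), taken as reads. These give 21502760 to 31679138 reads per library on the listed genes.

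Differences were tested with limma 3.58.1 in R 4.3.3 on log2(normalized count + 1), which understates changes of low genes, with treatment as the only term, a mean-variance trend and Benjamini-Hochberg adjustment over 16887 genes with a mean of at least 10. Single genes were compared by exact permutation. Lists were described by counts and medians. Alternatives included edgeR 4.0.16 and DESeq2 1.42.0 on the recovered reads. The tests were also tested on simulated data. All 10 genes and the genes of 6 pathway lists that were called or lowest or highest in their list were named, plus the 3 genes most like DNMT1 and TET2. CDCA7 and the ratios between genes were chosen after their values were seen. The genes and lists were chosen with earlier results of these data known. Positions and transcript lengths come from GENCODE release 44 (GRCh38), and promoters from RefSeq. A few genes of the lists are not reported here.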

Additional observations from a re-analysis of the deposited data

How the results depend on the processing

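Of 19 alternatives, 18 called 0 of the 10 genes without adjustment and all 19 called 0 with it. These were pseudocounts of 0.1 and 10, no filter, a mean of at least 50, quantile normalization, equal library totals, eBayes without trend, edgeR, DESeq2, the replicate block, the first principal component as a covariate and each library left out, and, chosen after seeing the data, the length and GC correction and leaving out DMSO replicate 2 with Tan I replicate 3. Leaving out single libraries gave 0 to 1 calls without adjustment, the 1 being DNMT3A without Tan I replicate 1. In that setting TET1 was just short of a call at -0.44 (limma, unadjusted p = 0.0506, adjusted p = 0.53). Same-numbered libraries deviated together in 1 of 3 pairs (r = 0.75, -0.09 and -0.45), so the numbers were not taken to pair the libraries, and with the replicate block 0 of the 10 genes were called with or without adjustment. Only DNMT3A, TET1, TDG and IDH1 kept their direction under all 19. Adding the first component gave log2FC of 0.032 for DNMT1, 0.063 for DNMT3B, 0.019 for TET2, -0.017 for UHRF1 and -0.036 for IDH2. In that fit DNMT3A had -0.17 (limma, unadjusted p = 0.023, adjusted p = 0.24). TDG had 0.15 (limma, unadjusted p = 0.0497, adjusted p = 0.32), and both were short of the fold threshold. Equal totals gave -0.034 for UHRF1 and -0.0035 for IDH2, and moved the share of higher calls over all genes from 54.7% to 42.9%. Quantile normalization gave -0.041 for IDH2, length and GC correction 0.031 for DNMT1 and 0.0055 for DNMT3B, and leaving out DMSO replicate 2 with Tan I replicate 3 -0.0056 for IDH2. Leaving out single libraries gave -0.18 to 0.065 for DNMT1, -0.28 to 0.089 for DNMT3B, -0.55 to 0.057 for TET2, -0.47 to 0.080 for TET3, -0.042 to 0.11 for UHRF1 and -0.091 to 0.17 for IDH2. Equal totals rescale each library as a whole, so the shifts in that setting were shared with all genes tested. Their median log2FC was -0.061 with equal totals and 0.033 with length and GC correction, beside -0.0016 in the main fit. The cause of the other shifts was not tested.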
